A study of Mus musculus with 16 samples.

Results

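Glucuronidation, sulfation and glutathione conjugation were followed through 45 genes in the livers of Pdgf-c transgenic and wildtype mice: 10 UDP-glucuronosyltransferases (UGT), 16 sulfotransferases (SULT) and 19 cytosolic, mitochondrial or peroxisomal glutathione transferases (GST). The genes were chosen by symbol alone, as every gene of the UGT1 to UGT3, SULT and GST alpha, kappa, mu, omega, pi, theta and zeta classes that had a row of its own on the array. They are 45 of the 19938 genes measured that way. The gene table of the mouse assembly lists 64 protein-coding genes of these classes, of which 17 others were read only by rows shared between several symbols, and those rows are described apart.

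Total liver RNA from 7 Pdgf-c transgenic and 9 wildtype samples of C57BL/6 mice was hybridised to Affymetrix Mouse Gene 1.0 ST arrays, 1 array per sample. The transgene makes platelet-derived growth factor C, which acts on receptors of fibroblasts and hepatic stellate cells. The study's question was the part of such stromal cells in the formation of liver tumours. The promoter that drives the transgene, the age and sex of the mice and the number of separate animals are not given in the sources used here, so each p-value measures only the spread between these samples. The labels name stromal cells as the cell type and the protocol names hepatic RNA. All values are log2 intensities as the authors deposited them, and a difference is always transgenic minus wildtype with the standard error of the fit.

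These enzymes attach a polar group to a drug, hormone, bile acid or bilirubin so that it can leave the hepatocyte in bile or blood. UGTs sit in the membrane of the endoplasmic reticulum and transfer a sugar, mostly glucuronic acid from UDP-glucuronate. SULTs are cytosolic and transfer sulfate from the activated donor PAPS, while GSTs join glutathione to electrophiles. In the liver these genes are kept on by hepatocyte transcription factors and are inducible through the receptors CAR, PXR and AHR and the stress factor NRF2.

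The labels were checked first. The Pdgfc row read 6.13, 6.53 and 6.63 in the transgenic arrays and 5.76, 6.00 and 6.19 in the wildtype arrays (lowest, median and highest), a difference of 0.44 ± 0.0873 (limma adjusted p = 0.00132), and 6 of the 7 transgenic arrays lay above all wildtype arrays. Whether that row reads the transgene is not given in the sources used here. Hepatocyte markers were bright in both groups, with a summed level (log2 of the summed linear intensities) of 16.39 to 16.44 in transgenic and 16.39 to 16.47 in wildtype arrays, so hepatocyte transcripts were present throughout. Stellate and fibroblast markers rose in 11 of 12 genes (median 1.81). In bulk RNA, fewer cells of a type and less RNA per cell cannot be told apart.

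The 3 families differed in their counts, which were not tested against each other. Of the 10 UGT genes 8 fell and none rose at an adjusted p of 0.05 (limma, Benjamini-Hochberg over all 35557 rows), and 9 of the 10 differences were negative. Of the 16 SULT genes 4 fell and 1 rose. Among the 19 GST genes 4 fell and 3 rose, with the other 12 between -0.20 and 0.20. Over all genes, 11.1% were called lower and 12.1% higher, 23.2% together. Differences were negative in 11992 of the 19938 genes, and in 709 of the 1013 with a mean above 10. At least 1.5-fold calls numbered 2 higher and 5 lower among the 45 genes, against 754 higher and 173 lower among all 19938 (4.65% together). The groups did not overlap in 8 genes that were lower (5 UGT, 2 SULT, 1 GST) and 1 that was higher, a separation seen in 3.65% and 5.43% of all genes. The median difference was -0.26 for UGT, -0.11 for SULT and -0.05 for GST genes, against -0.04 over all genes. The GST median moved with single arrays and with the scaling: it was -0.00173 without transgenic array 1 and -0.03 without wildtype array 3, and -0.02 after quantile normalization and -0.10 after centring. With each array centred on its median, the GST count became 7 lower and 3 higher (as deposited, 4 and 3), since Gsto2, Gstp1 and Gsta3 then passed the threshold as lower.

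**Figure D1:**
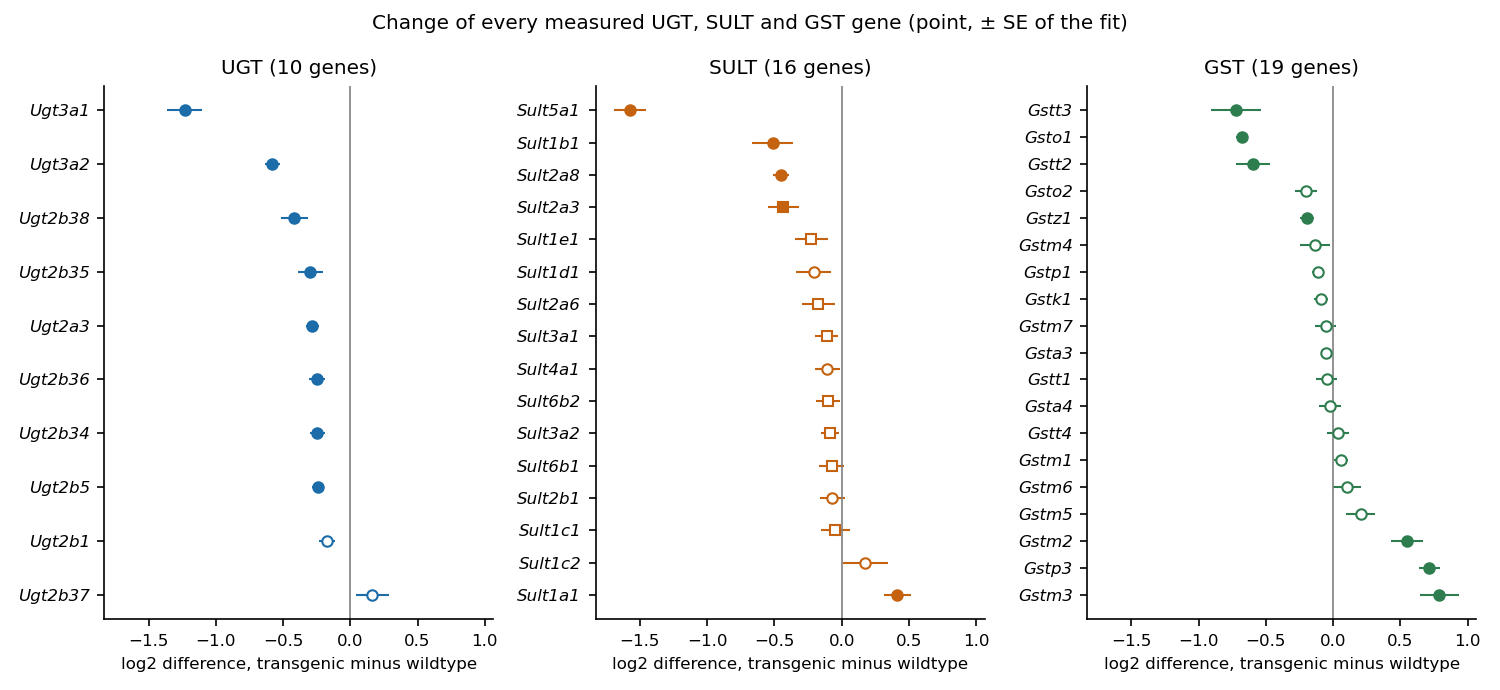
Log2 difference (transgenic minus wildtype, x axis) of each UGT, SULT and GST gene with the standard error of the fit as the bar. Filled points passed an adjusted p of 0.05, open points did not, and squares are genes whose higher group mean lies under the 20th percentile of the table (3.45). The 8 filled UGT points all lie left of 0, Sult5a1 and Ugt3a1 are the leftmost points of their panels, and the GST panel holds filled points on both sides.

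Per array, the median deviation of the 10 UGT genes from their wildtype means ran from -0.58 to -0.16 in the 7 transgenic arrays and from -0.09 to 0.09 in the 9 wildtype arrays. The UGT medians of the groups therefore did not overlap. For GST genes the same medians ran from -0.21 to 0.12 and from -0.09 to 0.13, and for SULT genes from -0.20 to -0.04 and from -0.15 to 0.02, which overlapped.

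Bright genes were called lower more often than genes as a whole, and most UGT genes were bright. Of the 1013 genes with a mean above 10, 41% were lower and 12.4% higher (53.4% together), with a median difference of -0.10. Of the UGT genes in that range, 7 of 8 were lower (median -0.26), as were 1 of 3 SULT genes and 2 of 9 GST genes. The groups did not overlap in 19.9% of such genes in the lower direction. A lower call was thus common in the pool of bright genes, and kinds of gene within it were not compared. It did not hold for every kind: of the bright ribosomal protein genes, Rps12 and Rps14 were called higher, while Rps2 and Rps3 were not called. At the other end, 8 of the 16 SULT genes had both group means under the 20th percentile of the table (3.45), where 2.56% of genes were called, and no UGT or GST gene did.

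**Figure D2:**
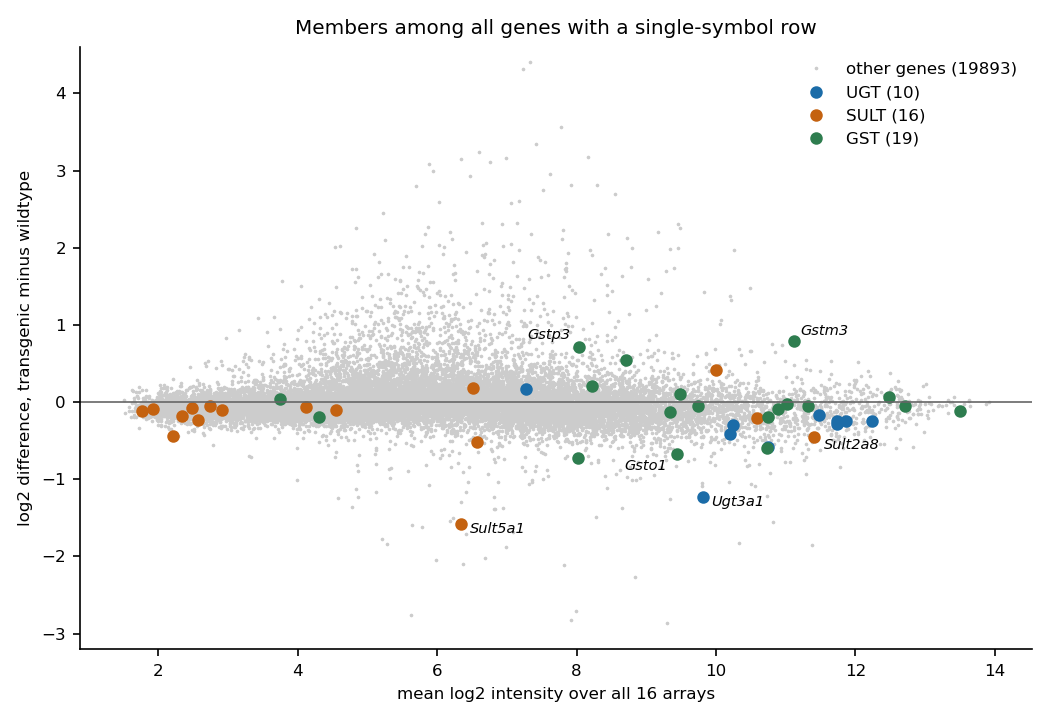
Mean log2 intensity over all 16 arrays (x axis) against the log2 difference between transgenic and wildtype (y axis) for 19938 genes, with the UGT, SULT and GST genes in colour and all other genes in grey. The UGT points other than Ugt3a1 and Ugt2b37 lie right of 10 on the x axis and below 0, while Ugt3a1 and Sult5a1 lie below the dense band of grey points.

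The pair of UGT3 genes changed most among the glucuronosyltransferases. The UGT3 enzymes use sugar donors other than UDP-glucuronate in humans. For Ugt3a1 the lowest, median and highest log2 values were 8.46, 9.27 and 9.61 in the transgenic arrays and 10.07, 10.37 and 10.58 in the wildtype arrays. Every transgenic array lay below every wildtype array, and the gene fell 2.35-fold (-1.23 ± 0.131, limma adjusted p = 1.97e-06). Ugt3a2, its neighbour on the chromosome, read 10.12, 10.40 and 10.64 in the transgenic arrays and 10.95, 10.99 and 11.07 in the wildtype arrays, again without overlap, and fell just under 1.5-fold (-0.58 ± 0.0564, limma adjusted p = 6.14e-07). Within arrays, the Ugt3a1 minus Ugt3a2 difference moved by -0.65 ± 0.112 (exact permutation test over samples, two-sided, adjusted p = 0.000728 over 25 neighbouring pairs). The Ugt3a1 row thus fell further than the Ugt3a2 row, though rows of a single gene can also differ in their change, as with Gstm3 below. A further 2 rows that list both UGT3 symbols stood at -0.66 and -0.72, without overlap between the groups.

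The 8 UGT2 genes lie side by side in a single cluster, and 6 of them fell by smaller amounts. Enzymes of the UGT2B branch conjugate steroids, bile acids and many drugs. Ugt2b38 read 9.78, 9.99 and 10.07 in the transgenic arrays and 9.96, 10.36 and 10.83 in the wildtype arrays and fell 1.33-fold (-0.42 ± 0.101, limma adjusted p = 0.00639). Its wildtype arrays were widely spread, and 3 of 7 transgenic arrays lay below all of them. For Ugt2b35 the values were 9.54, 10.11 and 10.34 in the transgenic arrays and 10.21, 10.45 and 10.50 in the wildtype arrays, a 1.23-fold fall (-0.30 ± 0.0900, limma adjusted p = 0.0268) with 5 of 7 transgenic arrays below all wildtype arrays.

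In Ugt2b36 and Ugt2b5 the groups were separate. Ugt2b36 read 11.77, 12.16 and 12.23 in the transgenic arrays and 12.25, 12.36 and 12.50 in the wildtype arrays (-0.25 ± 0.0579, limma adjusted p = 0.00457). Ugt2b5 read 11.66, 11.72 and 11.81 in the transgenic arrays and 11.84, 11.93 and 12.14 in the wildtype arrays (-0.24 ± 0.0445, limma adjusted p = 0.000715). These falls, 1.19-fold and 1.18-fold, were small, and in neither gene did any array of one group reach the other. Ugt2a3 and Ugt2b34 fell by 0.28 and 0.25 on the log2 scale. Ugt2b1, just outside the threshold, differed by -0.17 ± 0.059 (limma adjusted p = 0.0528), and it passed with arrays centred on their medians, among bright rows or single-symbol rows alone, with a gene's rows averaged, and without wildtype array 3 or 4 or transgenic array 5 (adjusted p 0.0286, 0.0387 and 0.0202).

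Ugt2b37 was the 1 gene of the cluster with a positive difference. It read 7.04, 7.36 and 7.97 in the transgenic arrays and 6.77, 7.25 and 7.48 in the wildtype arrays, a difference of 0.16 ± 0.122 (limma adjusted p = 0.406) that did not pass the test. Without transgenic array 6, its highest value, the difference was 0.06 ± 0.0989 (limma adjusted p = 0.747). Against its neighbours the contrast did pass: the Ugt2b5 minus Ugt2b37 difference moved by -0.40 ± 0.136 and the Ugt2b37 minus Ugt2a3 difference by 0.45 ± 0.133 (exact permutation, adjusted p = 0.00971 and 0.00738). Without transgenic array 6 these contrasts were -0.30 and 0.36 (exact permutation, adjusted p = 0.0278 and 0.0206). Ugt2b36 minus Ugt2b5, by comparison, moved by -0.01 ± 0.0536 (exact permutation, adjusted p = 0.884). Close paralogs can share probe sequence, so each row may hold some signal of its neighbours.

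The promoters of Ugt2b5, Ugt2b36, Ugt2b38 and Ugt2b37 are shown because 3 of the genes fell and Ugt2b37 did not pass the test. Each line gives the 150 bases before the RefSeq start, 5′ to 3′ on the gene's strand, on build GRCm38.p6, with the hexamer AGGTCA, the core sequence read by many nuclear receptors, in capitals. The stretches lie at chr5:87140341-87140490, minus strand, at chr5:87092556-87092705, minus strand, at chr5:87424204-87424353, minus strand and at chr5:87254789-87254938, minus strand.
Ugt2b5: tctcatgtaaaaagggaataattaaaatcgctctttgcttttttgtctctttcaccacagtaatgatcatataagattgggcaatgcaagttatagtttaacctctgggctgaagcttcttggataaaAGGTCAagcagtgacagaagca
Ugt2b36: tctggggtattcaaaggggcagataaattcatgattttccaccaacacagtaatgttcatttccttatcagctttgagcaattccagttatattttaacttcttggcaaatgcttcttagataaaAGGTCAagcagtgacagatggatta
Ugt2b38: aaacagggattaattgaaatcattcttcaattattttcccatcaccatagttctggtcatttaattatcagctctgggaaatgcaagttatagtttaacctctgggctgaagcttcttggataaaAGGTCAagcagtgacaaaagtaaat
Ugt2b37: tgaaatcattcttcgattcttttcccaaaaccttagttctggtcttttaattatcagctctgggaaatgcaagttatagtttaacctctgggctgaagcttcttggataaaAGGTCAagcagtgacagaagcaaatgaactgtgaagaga

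All 4 promoters hold the hexamer within a shared stretch of 22 bases, gataaaAGGTCAagcagtgaca, which no other of the 32851 promoter windows in the table holds. The hexamer itself, on either strand, was found in 10 of 52 member windows of 300 bases and in 16.3% of all windows. By family it was in 5 of 9 UGT, 3 of 18 SULT and 2 of 25 GST windows. The 4 promoters shown are among those UGT windows, so its UGT count is not one of separate occurrences. In global alignments of the 150 bases, Ugt2b38 was 78% identical to Ugt2b37 (128 of 164 alignment columns, gaps counted). Ugt2b5 was 61.5% identical to Ugt2b37 (107 of 174 columns). Ugt2b37, which did not pass the test, thus carries the same stretch as Ugt2b5, Ugt2b36 and Ugt2b38. The windows of Ugt2a3, Ugt2b34 and Ugt2b35, which also fell, do not hold it. A part of the stretch in these changes was not tested.

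Ugt3a1, with the largest fall among the UGT genes, is shown as well, at chr15:9279679-9279828, plus strand. Its window held no AGGTCA on either strand.
Ugt3a1: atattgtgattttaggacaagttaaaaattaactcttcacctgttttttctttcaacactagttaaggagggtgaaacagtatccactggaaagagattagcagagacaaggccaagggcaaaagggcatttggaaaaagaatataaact

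The Ugt1a genes, which include the bilirubin-conjugating enzyme, share their last exons and were read here by a row that lists 8 of their symbols. That row read 9.88, 10.12 and 10.25 in the transgenic and 10.29, 10.40 and 10.46 in the wildtype arrays (lowest, median and highest). Its groups did not overlap, and it stood -0.26 ± 0.0468 from wildtype (limma adjusted p = 0.000463). The row cannot be given to a single Ugt1a gene. A row listing Ugt2a1 and Ugt2a2 lay under the 20th percentile in both groups.

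Among sulfotransferases, Sult5a1 changed most and 8 genes lay near the bottom of the scale. Sult5a1 read 5.18, 5.55 and 5.89 in the transgenic arrays and 6.67, 6.97 and 7.42 in the wildtype arrays, with a wide gap between the groups. It fell 2.98-fold (-1.58 ± 0.121, limma adjusted p = 2.89e-08), the largest difference of all 45 genes. Sult2a8, which sulfates bile acids in mouse liver, read 10.94, 11.12 and 11.45 in the transgenic arrays and 11.52, 11.60 and 11.68 in the wildtype arrays. Its wildtype arrays were tightly grouped, all above the transgenic arrays, and the fall was 1.37-fold (-0.45 ± 0.0612, limma adjusted p = 2.93e-05).

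Sult1b1, which acts on thyroid hormones and small phenols, read 5.85, 6.19 and 6.67 in the transgenic arrays and 6.29, 6.98 and 7.21 in the wildtype arrays and fell 1.43-fold (-0.51 ± 0.149, limma adjusted p = 0.0201). The groups overlapped, and the call was lost without transgenic array 3 (adjusted p = 0.0514) or without transgenic array 1 and wildtype array 9 together (0.0563). Sult1a1, the main phenol sulfotransferase, was the SULT gene that rose. Its values were 10.10, 10.22 and 10.38 in the transgenic arrays and 9.31, 9.96 and 10.16 in the wildtype arrays, and 6 of 7 transgenic arrays exceeded all wildtype arrays (1.33-fold, 0.41 ± 0.0993, limma adjusted p = 0.00582). The wildtype arrays were more spread than the transgenic ones, with an SD of 0.272 against 0.0945.

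Sult1d1, which sulfates catecholamines, read 10.25, 10.47 and 10.68 in the transgenic arrays and 10.31, 10.61 and 11.49 in the wildtype arrays (-0.21 ± 0.129, limma adjusted p = 0.302), and its groups overlapped. Without wildtype array 3, its highest value, the difference was -0.11 ± 0.0814 (limma adjusted p = 0.424). Sult1c2 stood at 0.18 ± 0.168, Sult4a1 at -0.11 ± 0.0931 and Sult2b1 at -0.07 ± 0.0925, none past the threshold. The 8 genes under the 20th percentile were Sult1c1, Sult1e1, Sult2a3, Sult2a6, Sult3a1, Sult3a2, Sult6b1 and Sult6b2, among them the estrogen sulfotransferase Sult1e1. Of these Sult2a3 was called, with group means of 1.96 and 2.40 (limma adjusted p = 0.0112), and with values under that percentile set to it the call was gone. No fold is given at that level. Both rows shared between Sult2a symbols also lay under that percentile in both groups and were not called.

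Of the glutathione transferases, 2 of 7 mu genes and 1 of 2 pi genes rose, while 2 of 4 theta genes, 1 of 2 omega genes and the zeta gene fell. No class was tested as a whole, and the mu, pi, theta and omega classes each held genes that did not pass. Neither measured alpha gene, nor the kappa gene, passed the test. Gstm3 read 10.83, 11.43 and 12.25 in the transgenic arrays and 10.61, 10.74 and 10.96 in the wildtype arrays, and 6 of 7 transgenic arrays lay above all wildtype arrays. The rise was 1.73-fold (0.79 ± 0.145, limma adjusted p = 0.00063), and the transgenic arrays were far more spread (SD 0.464 against 0.126). This row, 10362511, is the brighter of 2 rows for Gstm3. The other, 10501218, read 10.26, 11.19 and 12.16 against 9.61, 9.88 and 10.25 with no overlap, and rose 2.56-fold (1.36 ± 0.195, limma adjusted p = 5.41e-05).

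Gstm2, next to Gstm3 in the mu cluster, read 8.55, 8.93 and 9.36 in the transgenic arrays and 8.11, 8.44 and 8.83 in the wildtype arrays and rose 1.46-fold (0.55 ± 0.12, limma adjusted p = 0.0029), again with 6 of 7 transgenic arrays above all wildtype arrays. In Gstm3 and Gstm2 alike, transgenic array 1 was the lowest and transgenic array 7 the highest of its group. The other 5 mu genes, Gstm1, Gstm4, Gstm5, Gstm6 and Gstm7, differed by -0.13 to 0.20 and did not pass. The contrast between neighbours did: Gstm2 minus Gstm1 moved by 0.49 ± 0.109 and Gstm6 minus Gstm3 by -0.69 ± 0.103 (exact permutation, adjusted p = 0.00291 and 0.000728). On the array rows used, Gstm2 thus rose more than Gstm1, and Gstm3 more than Gstm6.

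Gstp3 read 8.18, 8.47 and 8.68 in the transgenic arrays and 7.51, 7.71 and 7.97 in the wildtype arrays, with every transgenic array above every wildtype array, and rose 1.64-fold (0.72 ± 0.0768, limma adjusted p = 2.07e-06). Gstp1, the pi enzyme long used as a marker of preneoplastic foci in rat liver, was not called. It read 13.35, 13.45 and 13.50 in the transgenic arrays and 13.29, 13.58 and 13.69 in the wildtype arrays (-0.11 ± 0.0442, limma adjusted p = 0.0939). Wildtype array 3 was the lowest Gstp1 value of all 16, and without it Gstp1 was called lower (-0.14 ± 0.0303, adjusted p = 0.00256). The within-array contrast of Gstp1 minus Gstp3 moved by -0.83 ± 0.108 (exact permutation, adjusted p = 0.000728). Rows listing both Gstp1 and Gstp2 stood at -0.15 and -0.16, neither called.

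Gsto1, an omega enzyme that reduces dehydroascorbate and arsenic compounds, had the smallest p of the GST genes. It read 8.88, 9.09 and 9.22 in the transgenic arrays and 9.67, 9.74 and 9.79 in the wildtype arrays and fell 1.6-fold without overlap (-0.68 ± 0.0465, limma adjusted p = 7.29e-09). Its neighbour Gsto2 differed by -0.20 ± 0.0812 (limma adjusted p = 0.102). The Gsto1 minus Gsto2 contrast moved by -0.48 ± 0.0941 (exact permutation of the within-array contrast, adjusted p = 0.00175). Gsto2 was dim, with a mean of 4.30 under the table median of 5.26. Dim rows understate their changes, so the contrast does not show that Gsto2 itself changed less.

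Of the theta genes, whose enzymes act on halogenated small molecules, Gstt2 read 10.15, 10.39 and 10.998 in the transgenic arrays and 10.59, 10.995 and 11.36 in the wildtype arrays and fell 1.51-fold (-0.59 ± 0.125, limma adjusted p = 0.00206). Transgenic array 7 lay among the wildtype values and the other 6 below all of them. Gstt3 read 7.19, 7.71 and 8.03 in the transgenic arrays and 7.65, 8.32 and 9.09 in the wildtype arrays, with wide overlap, and fell 1.65-fold (-0.72 ± 0.186, limma adjusted p = 0.00964). Gstt1, between them in the cluster, differed by -0.05 ± 0.0797 (limma adjusted p = 0.737), and the Gstt3 minus Gstt1 contrast moved by -0.67 ± 0.126 without overlap (exact permutation, adjusted p = 0.00164).

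Gstz1, which isomerises maleylacetoacetate in tyrosine breakdown, read 10.53, 10.61 and 10.78 in the transgenic arrays and 10.71, 10.82 and 11.004 in the wildtype arrays and fell 1.14-fold (-0.20 ± 0.0505, limma adjusted p = 0.00983). The alpha gene Gsta3 read 12.65, 12.68 and 12.73 in the transgenic arrays and 12.68, 12.72 and 12.81 in the wildtype arrays, a difference of -0.05 ± 0.022 (limma adjusted p = 0.0999). It had the smallest standard error of the 45 genes, and it passed after quantile normalization (adjusted p = 0.0133) and after centring (0.0056). Gsta4 differed by -0.02 ± 0.0803, and 4 rows shared between Gsta1, Gsta2 and related symbols by -0.01 to 0.04. Gstk1, the mitochondrial and peroxisomal kappa enzyme, stood at -0.09 ± 0.0548 (limma adjusted p = 0.296).

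**Figure D3:**
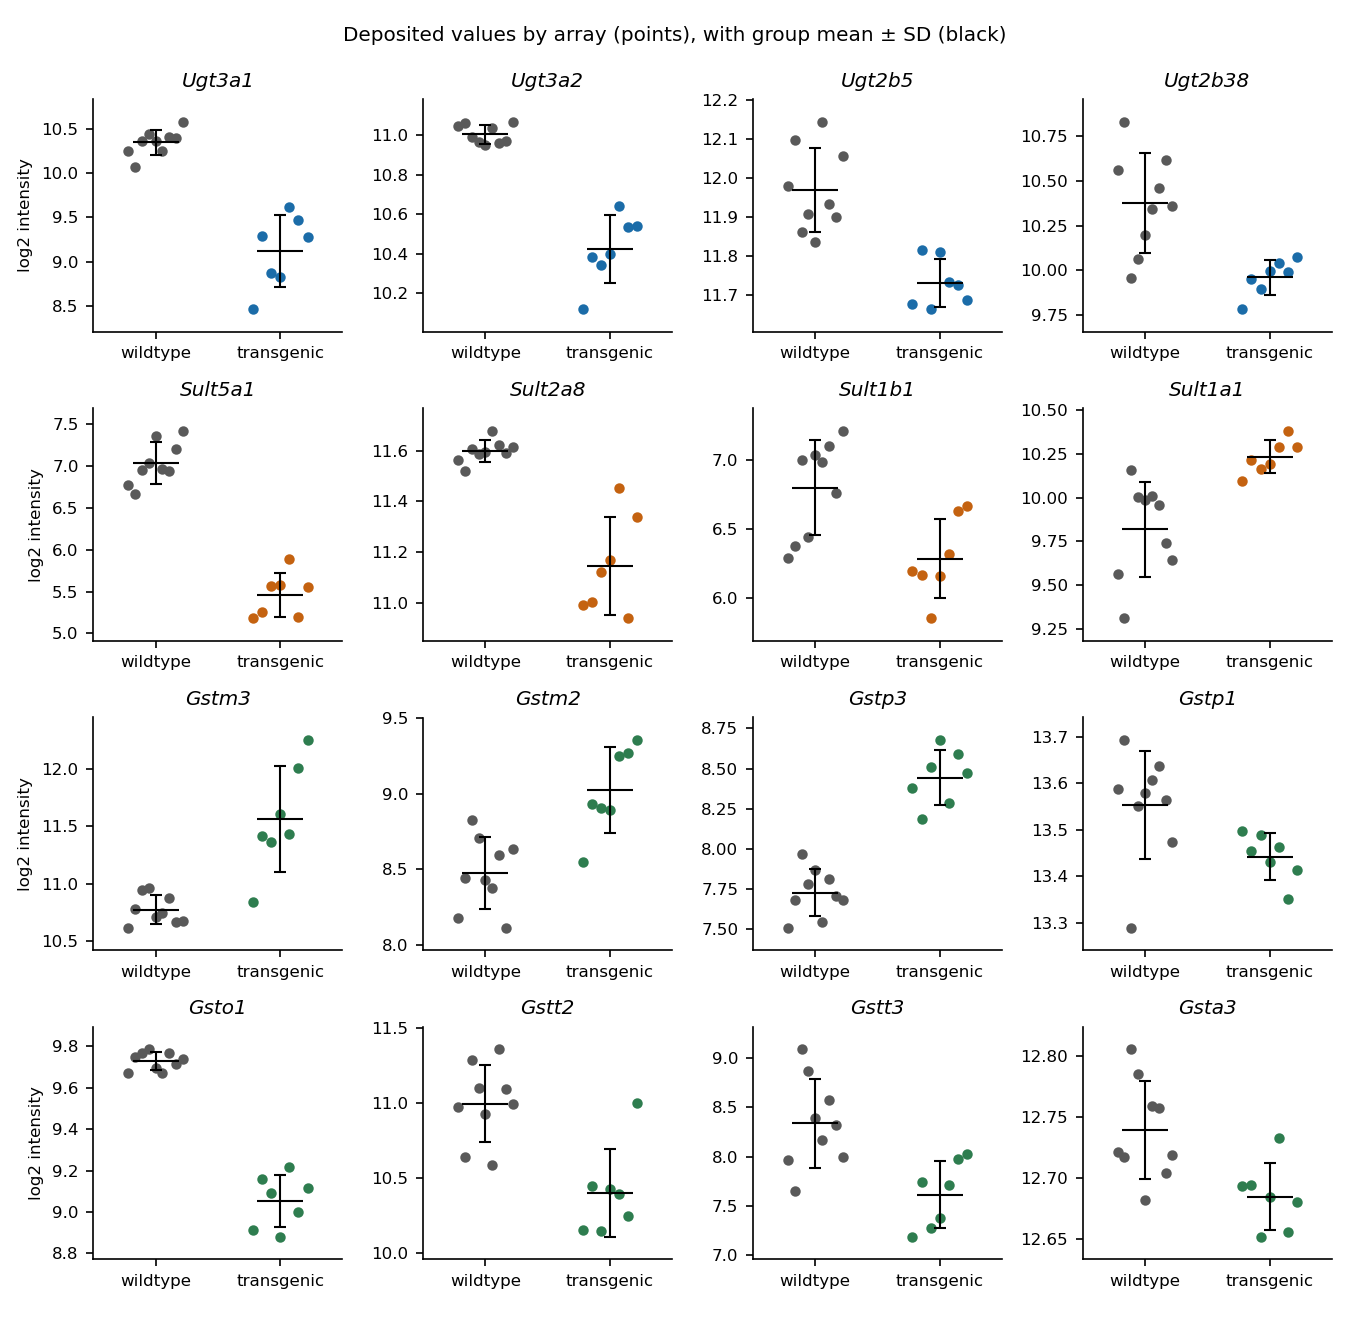
Log2 intensities of 16 members in each wildtype (grey) and transgenic (coloured) array, with the group mean and SD in black. Each panel has its own y axis, which does not start at 0. The groups are separate in Ugt3a1, Ugt3a2, Ugt2b5, Sult5a1, Sult2a8, Gstp3 and Gsto1 and overlap in the other 9 panels.

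Promoters of the rising mu genes are shown beside that of Gsta3, because GST promoters are classic carriers of the antioxidant response element through which NRF2 acts. The lines give the 150 bases before the RefSeq start on GRCm38.p6, at chr3:107969175-107969324, minus strand, at chr3:107986421-107986570, minus strand and at chr1:21240435-21240584, plus strand, and capitals mark the core TGACNNNGC on either strand.
Gstm3: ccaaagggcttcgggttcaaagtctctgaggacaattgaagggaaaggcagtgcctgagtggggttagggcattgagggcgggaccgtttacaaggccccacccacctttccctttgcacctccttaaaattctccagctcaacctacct
Gstm2: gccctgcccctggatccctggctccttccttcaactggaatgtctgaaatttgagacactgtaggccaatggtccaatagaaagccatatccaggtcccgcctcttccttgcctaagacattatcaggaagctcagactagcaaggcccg
Gsta3: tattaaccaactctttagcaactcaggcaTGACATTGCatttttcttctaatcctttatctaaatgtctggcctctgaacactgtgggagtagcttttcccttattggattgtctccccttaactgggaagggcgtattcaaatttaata

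The core was found in 3 of 25 GST windows, those of Gsta3, Gstm5 and Gstm7, and in 12.4% of all 32851 windows. None of the 3 genes passed the test, and the windows of Gstm3, Gstm2 and Gstp3 did not hold these letters. A window of 300 bases says nothing of elements farther away. The AHR core GCGTG was in 9 of 52 member windows (32.4% of all) and the STAT5 motif TTCNNNGAA in 2 (8.3% of all). The full HNF1 palindrome and the direct repeat of AGGTCA spaced by 1 base were in none of the 52, and in 0.00913% and 0.0396% of all windows. The shorter GTTAAT, added after the data were seen, was in 8 member windows (7.1% of all). Of their genes, Ugt3a1, Ugt2a3 and Sult2a3 were called lower and Sult1a1 higher, while Gsta3, Sult1d1, Sult2a6 and Sult3a2 were not called.

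Neighbouring genes were compared over all 25 adjacent pairs in the 10 clusters, as the change of the within-array difference. After adjustment over the 25 pairs (exact permutation of 11440 splits, two-sided), 11 pairs passed, and in 4 of them the groups did not overlap. With each array left out in turn, 10 of the 11 passed every time, and Gstm5 minus Gstm7 passed in 3 of 16. The pairs with no overlap were Ugt3a1 and Ugt3a2, Gstp1 and Gstp3, Gstm6 and Gstm3, and Gstt3 and Gstt1. The first 3 of these had the smallest p that this design can give (8.74e-05). For the UGT2 cluster, 2 of 7 pairs passed, and both involve Ugt2b37. Of the 6 SULT pairs none passed (adjusted p from 0.0741 to 0.884), and 5 of them include a gene under the 20th percentile. Among the pairs that passed, Gsto1 minus Gsto2 and Gstt4 minus Gstt2 have a dim partner (Gsto2, mean 4.30, and Gstt4, mean 3.74). The floor can understate the change of such a row. A contrast compares rows: the 2 rows of the single gene Gstm3 rose by 0.79 and 1.36. The Gstm3 pairs used its brighter row, and the other row was not run.

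**Figure D4:**
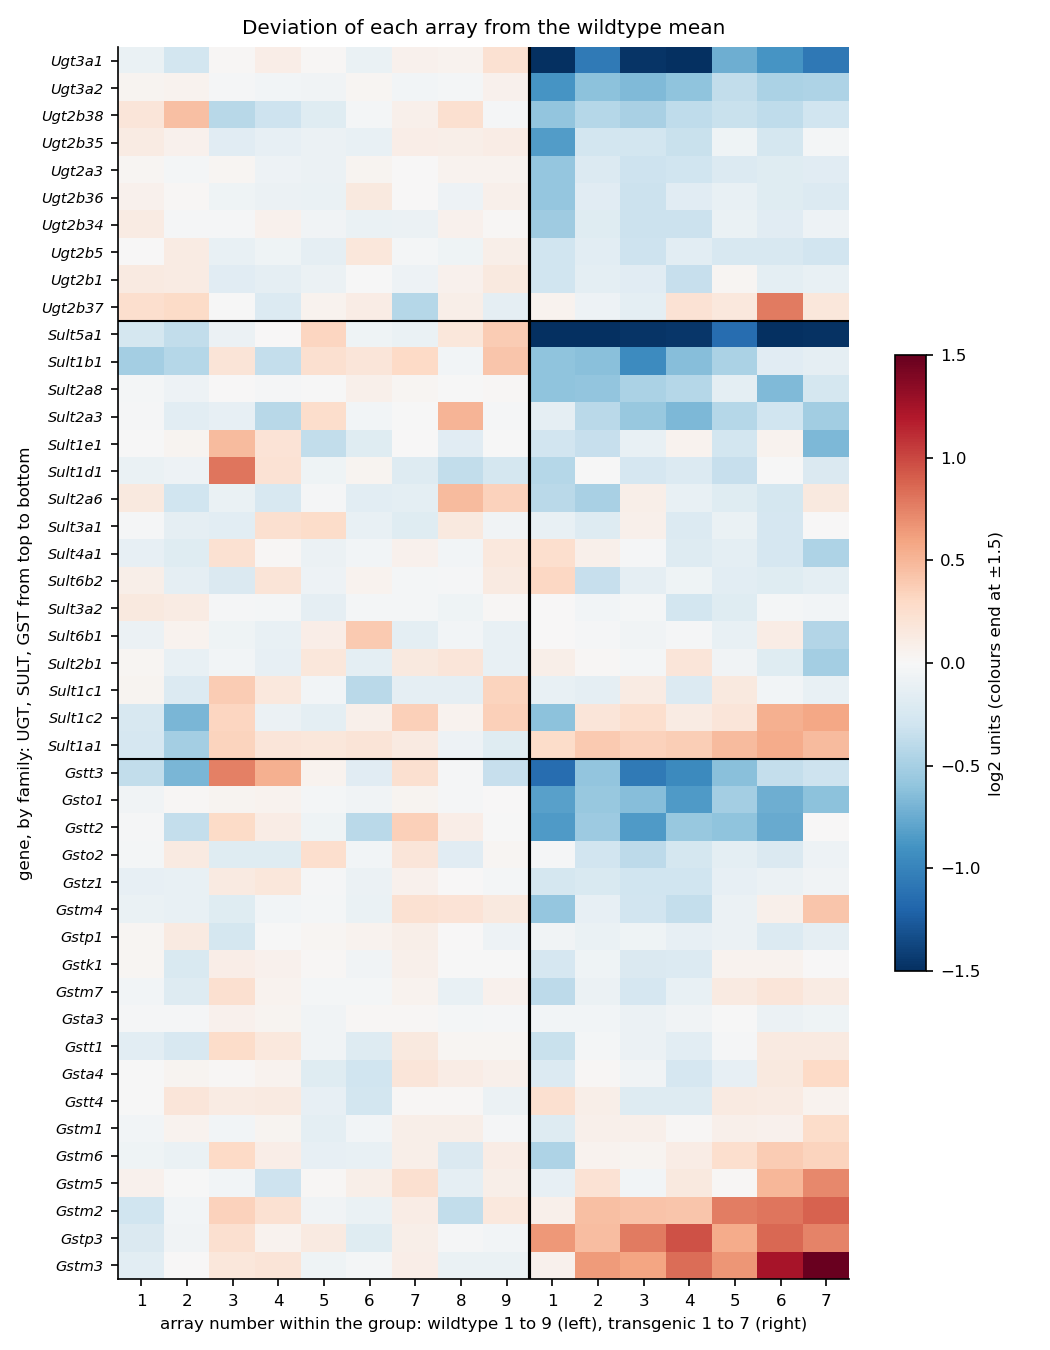
Deviation of each array (columns, 9 wildtype then 7 transgenic) from the wildtype mean of each gene (rows, by family), in log2 units with colours ending at ±1.5. The upper UGT rows are blue across the transgenic columns while Ugt2b37 is mostly pale or red, Sult5a1 is dark blue in all 7, and Gstm2, Gstp3 and Gstm3 at the bottom are red, except that transgenic array 1 is pale in Gstm2 and Gstm3.

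Arrays of the transgenic group differed among themselves. Over the 37 members above the 20th percentile, transgenic array 1 was the lowest of its group in 21, 7 of them UGT genes, and transgenic array 7 was the highest in 16, 10 of them GST genes. In the wildtype group, array 2 was the lowest in 10 and array 3 the highest in 11. Of the 20 called genes, 15 kept their call under every alternative run, leave-one-out included. The exceptions were Sult1b1, Sult2a3, Ugt2b34, Ugt2b35 and Gstz1, the last 3 with the replicate number as a block.

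Genes that supply or steer conjugation were read next, from lists drawn up with earlier results of these data known. Over all genes 11.1% were called lower and 12.1% higher, and among genes with a mean above 10 it was 41% and 12.4%. Each list count from here on stands beside these shares, and no list was tested as a set. Glutathione synthesis and recycling fell in 9 of 16 genes and rose in 3 (median -0.22). Both subunits of the rate-limiting ligase were lower, Gclc (-0.44 ± 0.0984) and Gclm (-0.33 ± 0.0573). The largest changes were rises of genes of glutathione breakdown: the dipeptidase Dpep1 by 1.81 ± 0.114 and the gamma-glutamyl transferase Ggt5 by 1.03 ± 0.084 (limma adjusted p = 2.07e-09 for Dpep1 and 6.64e-08 for Ggt5). Chac2, a glutathione-degrading cyclotransferase, stood at -0.49 ± 0.089 (limma adjusted p = 0.000587).

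For glucuronidation, neither Ugp2 nor Ugdh, which make UDP-glucuronate, passed (0.11 ± 0.083 and -0.18 ± 0.107, limma adjusted p = 0.411 and 0.292), while 2 of 3 SLC35 carrier genes fell: Slc35b4, a nucleotide sugar transporter, by 0.22 and Slc35b1, whose product is known as an ATP/ADP exchanger of the endoplasmic reticulum, by 0.36 on the log2 scale. For sulfation, 1 of 8 genes fell, Bpnt1, which clears the by-product of the reaction (-0.47 ± 0.0513, limma adjusted p = 2.61e-06). The PAPS synthases Papss1 and Papss2 differed by 0.08 ± 0.131 and 0.07 ± 0.0776, neither called. After centring, 4 of the 8 were lower, and after quantile normalization 3.

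Other conjugating enzymes fell in part, beside lower calls in 11.1% of all genes and 41% of those with a mean above 10. Of 12 genes of methyl, acetyl, acyl and glycine transfer 6 fell and 1 rose. Nat8, an N-acetyltransferase of cysteine conjugates, fell by 0.79 ± 0.133 on the log2 scale and Nat1, an arylamine acetyltransferase, by 0.49 ± 0.143, whereas the histamine methyltransferase Hnmt was higher by 0.32 ± 0.105, though not after centring. Among 6 microsomal and other glutathione transferases none fell and 2 rose, Hpgds by 1.12 ± 0.117 and Ptges by 0.37 ± 0.103, both synthases of prostaglandins. Mgst1, the microsomal transferase of hepatocytes, differed by -0.02 ± 0.0219 (limma adjusted p = 0.658). Of 8 hydrolases and deconjugating enzymes 5 fell, led by the carboxylesterases Ces1g (-0.91 ± 0.0622), Ces2a (-0.65 ± 0.0948) and Ces1d (-0.60 ± 0.046), and 1, Arsb, rose, though not after centring.

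Receptors that switch these genes on were lower in part, again beside 11.1% of all genes and 41% of those with a mean above 10. Of 12 nuclear receptors and partners 5 fell and none rose: the CAR gene Nr1i3 (-0.46 ± 0.0757), Rxrb (-0.30 ± 0.0611), the PXR gene Nr1i2 (-0.27 ± 0.0698), Hnf4a (-0.25 ± 0.076) and the bile acid receptor gene Nr1h4 (-0.22 ± 0.055). Limma adjusted p-values ran from 0.000237 to 0.0244, and after quantile normalization Hnf4a was not called (adjusted p = 0.0588). Of 5 CAR or PXR target genes 4 fell, Cyp2b10 (-2.05 ± 0.252), Cyp2c29 (-0.84 ± 0.0698), Cyp2c55 (-0.79 ± 0.249) and Ces2a as above. The other, Cyp3a11, differed by -0.12 ± 0.0493 (limma adjusted p = 0.0922). It was called lower after quantile normalization and after centring (limma adjusted p = 0.0242 and 0.032). Por, also listed, had no single-symbol row. A relation between these falls and those of the UGT genes was not tested.

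Of 13 other transcription factors and cofactors 2 rose and 2 fell (3 and 1 after quantile normalization), led by the coactivator gene Ppargc1a (0.64 ± 0.14). Nfe2l2, which encodes NRF2, was higher by 0.37 ± 0.105 (limma adjusted p = 0.0173), while its targets went both ways, 2 of 10 higher and 4 lower. Cbr3 rose by 0.90 ± 0.111 and Srxn1 by 0.31 ± 0.0726, Nqo1 differed by 0.09 ± 0.143 (limma adjusted p = 0.727), and Gclc, Gclm, Txnrd1 and Cbr1 fell. Of 5 AHR targets 1 rose and 1 fell, with Cyp1b1 higher by 1.65 ± 0.0927 and Cyp1a2 at -0.34 ± 0.0522. In the growth hormone axis, which sets sex differences of several SULT and UGT genes, 2 of 10 fell, Igfals (-0.81 ± 0.0748) and Ghr (-0.17 ± 0.0361). Of 14 genes higher in male liver 3 fell and 1 rose, and of 13 higher in female liver 3 fell and 1 rose.

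Export and uptake of conjugates were read last. Of 9 efflux transporters, Abcb1b, Abcc1 and Abcc5 rose by 0.72, 0.41 and 0.38, and Abcc3 and Abcg2 fell by 0.30 and 0.27 on the log2 scale. Abcc2, the canalicular exporter of glucuronides and glutathione conjugates, differed by 0.13 ± 0.0565 (limma adjusted p = 0.132). Of 6 uptake transporters of organic anions 3 fell, Slc22a7 (-1.48 ± 0.151) and, by smaller amounts, Slco2b1 and Slc10a1.

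**Figure D5:**
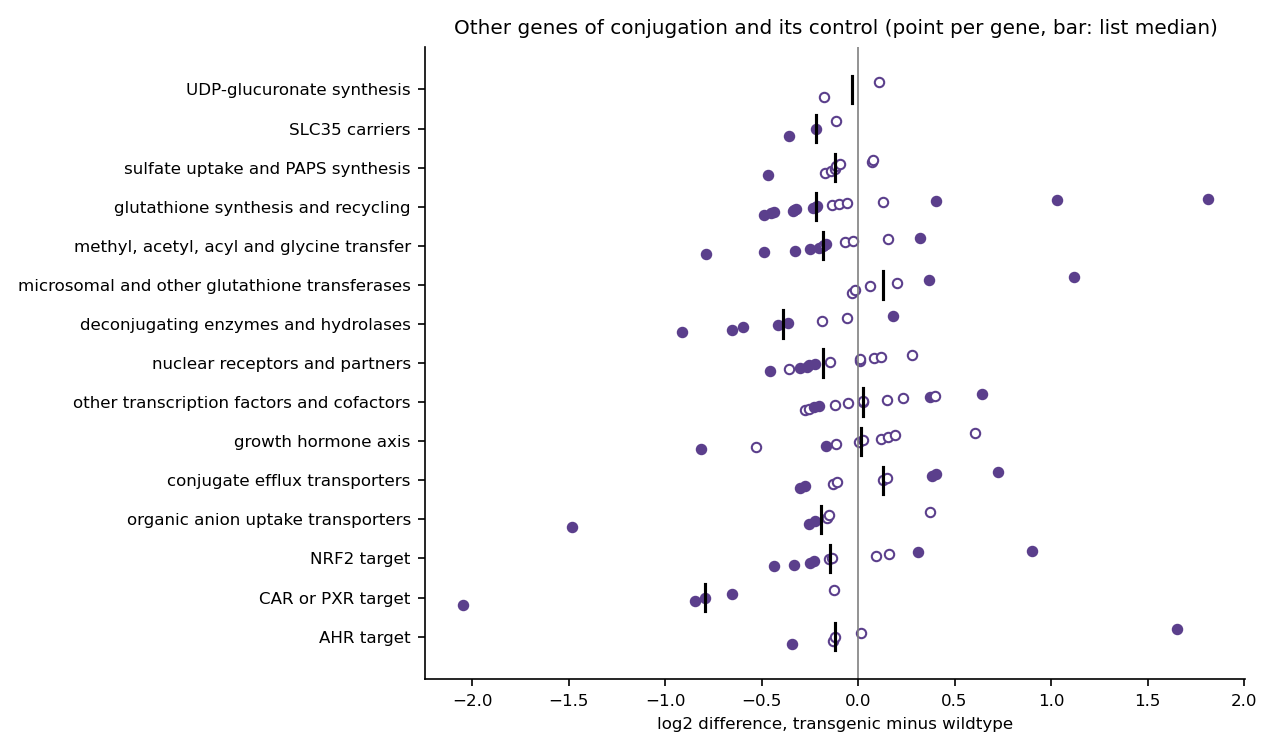
Log2 difference (transgenic minus wildtype, x axis) of each gene in 15 lists of cosubstrate supply, other conjugation, regulators, transporters and inducible genes (rows). Filled points passed an adjusted p of 0.05 and black bars are list medians, which lie left of 0 in 11 lists and lowest, at -0.79, for CAR or PXR targets.

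Cell type markers moved beside these results. Beside the stromal rise, lymphocyte markers rose in 6 of 9 genes (5 after centring), endothelial markers in 3 of 9 with 3 lower, and macrophage and Kupffer cell markers in 4 of 9 with 4 lower. The summed stellate and fibroblast level was 12.59 to 12.89 in transgenic and 10.58 to 11.27 in wildtype arrays. Hepatocyte markers changed little (median -0.02, 2 of 9 lower and 1, Apoa1, higher though not after centring). All 9 had a mean above 10, and whether rows this bright understate a change was not tested. An unchanged hepatocyte content therefore cannot be read from these markers. Cholangiocyte markers rose in 1 of 7 genes, Tspan8, though not after quantile normalization or centring. Periportal markers fell in 3 of 5 genes and rose in 1, and pericentral markers rose in 1 of 9 and fell in 1. The part of these shifts in the changes of UGT, SULT and GST genes was not tested.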

How the data were processed

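The values are log2 intensities of 16 arrays, 7 transgenic and 9 wildtype, as the authors deposited them after GCRMA, per the submitters' processing notes. That method subtracts a background predicted from each probe's bases, equalises the arrays and combines probes into rows. Its version and the log base are not given in the sources used here, and the base was read from the range (0.71 to 14.7). Scanner files and detection calls were not analysed here. Dim rows sit near a common floor, which understates their changes, and the number of arrays limits the precision.

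Of 35557 rows, 21789 carried 1 symbol, 1621 several and 12147 none in GEO's platform annotation. Each of 19938 genes was read from its brightest single-symbol row. All 45 members matched the gene table of GRCm38.p6, with 0 symbols changed, and 41 had RefSeq promoter windows (52 windows of 300 bases). Family genes less than 500 kb apart formed a cluster.

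Testing used limma 3.58.1 under R 4.3.3 (two-sided; lmFit, then eBayes with trend; residual degrees of freedom 14) on every row, with Benjamini-Hochberg adjustment and a threshold of 0.05. The fit was tested on simulated data. Exact permutation tests of neighbouring pairs, added after values were seen, ran in Python 3.11.15, with Biopython 1.88 for alignments and matplotlib 3.10.9 for plots. A planned comparison of member proteins was not run.

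Members, lists and the naming rule were chosen with earlier results of these data known. The rule took, per family, up to 4 rises and 4 falls among called genes above the table median (5.26), the 2 brightest genes, the smallest p, and the smallest p in a direction without a call. From each list it took up to 3 called genes by size. Other genes were named after their values were seen. Alternatives covered the scaling (quantile, median centring), the rows tested (the brighter ones, those of 1 symbol), a floor at the 20th percentile (3.45), averaging a gene's rows, array weights, eBayes run robustly or with no trend, a replicate block, and each array omitted, or transgenic array 1 with wildtype array 9. Counting rows of several symbols, and leaving out arrays in the pair tests, were added after the data were seen.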

Additional observations from a re-analysis of the deposited data

Results flagged for a closer look

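Of 42 groups of values checked, 21 named genes in each of 2 groups, 4 held an array that stood apart from the rest of its group by Dixon's criterion, and chance alone marks about 1 in 20 groups. Ugt2b35 was 9.54 in transgenic array 1, with the next lowest of the group at 10.05. Ugt2b37 was 7.97 in transgenic array 6, with the next highest at 7.41. Sult1d1 was 11.49 in wildtype array 3, with the next highest at 10.90. Gstt2 was 10.998 in transgenic array 7, with the next highest at 10.45, and without that array its difference was -0.69. All are log2 intensities or log2 differences.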

How the results depend on the processing

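Over 27 alternatives, the count of members called higher was 4 throughout, and the count called lower ran from 13 to 20 around 16 (15 to 18 when single arrays were left out). UGT genes called lower ran from 6 to 9, or 11 with the added choice of counting rows of several symbols, SULT genes from 3 to 4 and GST genes from 3 to 5, except for 7 with arrays centred on medians. The SULT median of -0.11 became -0.16 after centring, -0.33 on rows above the median level, where 6 of 16 genes remain, and 0 once values under the 20th percentile were raised to it. Quantile normalization and centring moved the median row from -0.03 to -0.04 and -0.08. Of 567 values of the 21 named genes, 558 kept their direction and side of the threshold, 4 lost their call and 5 gained it, and none reversed. Replicate numbers are shared by the groups in the sample titles, but same-numbered arrays did not deviate together (r from -0.02 to 0.0859 over 7 pairs, and no transgenic array was nearest to its own number), so the numbers were not taken as pairs. With the replicate block, 4 members were higher and 13 lower, and Ugt2b34, Ugt2b35 and Gstz1 were not called (adjusted p = 0.0637, 0.11 and 0.0531). The cause of these shifts was not tested.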
